A study of Mus musculus with 6 samples.

Results

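The genes described here code for the alpha chains of collagen, and their RNA was counted in mouse embryonic stem (ES) cells with and without HP1 alpha and HP1 beta. They were chosen by name, as every counted gene whose mouse symbol has the form Col, a number, a and a number. That gave 44 of 24467 gene IDs. Of the 44, 25 had at least 10 reads in at least 2 of 6 libraries and are described by collagen class, and 19 lay below that threshold. The choice by name used no difference between the groups, though earlier results of these data were known when it was made.

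The study asked how loss of both HP1 proteins changes gene expression in mouse ES cells, in 2 clones in which the genes were deleted and 1 control clone. The 3 groups were the double knockout (DKO) of Hp1α and Hp1β clone 1, DKO clone 2, and the control, whose alleles of both genes are floxed (F/F) and whose genotype is labelled WT. Each group had 2 libraries, and the labels do not say whether these came from separate cultures, so the p-values measure only the spread between these libraries, which may be technical. All 3 groups received no further treatment and grew in serum replacement medium that held LIF, the GSK3 inhibitor CHIR99021 at 3 µM and the MEK inhibitor PD184352 at 0.8 µM. Because there is 1 control clone, the effect of genotype and the particulars of that clone cannot be told apart.

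Collagens are secreted proteins of the extracellular matrix in which a trio of alpha chains winds into a triple helix, and each class builds a different structure. Fibrillar collagens form the fibres of connective tissue, type IV forms the network of basement membranes, type VI forms beaded microfibrils, FACIT collagens sit on the surface of fibrils, and multiplexins are proteoglycans of basement membranes. The early embryo makes basement membrane collagens, while most fibrillar chains are products of later mesenchyme, and HP1 proteins bind methylated histone H3 in heterochromatin.

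Libraries held 24628872 to 34641560 counted reads. The targeted genes were lower in every DKO library, with Cbx5 (HP1 alpha) at 191 to 205 CPM (read counts scaled to equal library size) in DKO cells and 809 to 813 CPM in the control, and Cbx1 (HP1 beta) at 43.9 to 49.3 CPM in DKO cells and 223 to 227 CPM in the control. The remaining counts may cover exons outside the deleted part. All 10 ES cell markers examined passed the filter for testing, and Pou5f1, a core pluripotency factor, had 641 to 668 CPM in DKO cells and 615 and 668 CPM in the control. Of the 10, 8 were not called in DKO cells, Nanog was higher and Tdgf1 was lower. Among all tested genes 5.06% were higher and 3.62% lower. Nanog, a pluripotency factor on chromosome 6, had 575 to 693 CPM in DKO cells and 496 and 499 CPM in the control (log2 0.33, adjusted p = 0.0281), and Tdgf1, the Nodal co-receptor Cripto, had 984 to 1123 CPM in DKO cells and 1204 and 1290 CPM in the control (log2 -0.28, adjusted p = 0.0415). Both calls ended when either control library was left out, that of Tdgf1 also without either clone 1 library or DKO clone 2 replicate 2, and with each chromosome centred the change of Nanog was -0.11. Of 17 fibroblast and feeder cell markers, 7 were not tested and had at most 6 reads in any library. Among these were Lum, Dcn, Postn and Prrx1, and Twist2 was at 0 in all 6 libraries. The other 10 markers were tested. The list, mostly Vim and Fn1, summed to 1330 to 1532 CPM in DKO libraries and 1293 and 1318 CPM in control libraries. Low counts were more often even than odd, at 60.6 to 62.6% of the values from 1 to 20, so a low count may stand for fewer fragments than reads.

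Among the collagens, Col18a1 stood far above the rest in every library, and the chains that make up the fibres of connective tissue were low. Col18a1 (Entrez 12822, GRCm38 chromosome 10, 77052178 to 77166530), a multiplexin of basement membranes whose C-terminal fragment is endostatin, had 189 and 244 CPM in DKO clone 1, 193 and 183 CPM in DKO clone 2, and 163 and 193 CPM in the control. The groups overlapped, and the change in DKO cells was 0.18 on the log2 scale (SE 0.12, adjusted p = 0.385). The edgeR quasi-likelihood test gave this and the other adjusted p-values, which were corrected over all 14771 tested genes with a threshold of 0.05. Col18a1 took 73.9 to 78.2% of all collagen reads in DKO libraries and 67.4 and 71.9% in control libraries.

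To compare levels between genes, CPM was divided by the gene width in the deposited table, which gives RPKM, the reads per kilobase of gene at equal library size. On that scale Col18a1 averaged 28.8 RPKM in DKO cells and 25.4 RPKM in the control. Next came Col4a1, a basement membrane chain, at 1.89 RPKM in DKO cells and 2.74 RPKM in the control. Col9a2, a FACIT chain of cartilage fibrils, was at 2.09 RPKM in DKO cells and 1.99 RPKM in the control. Every other collagen averaged below them, with Col9a3 at 1.17 RPKM in DKO cells and 0.714 RPKM in the control, and Col4a2 at 0.782 RPKM in DKO cells and 1.03 RPKM in the control. Col4a1 and Col9a2 did not keep 1 order, since Col4a1 was above Col9a2 in clone 1 and in the control and below it in clone 2.

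**Figure D1:**
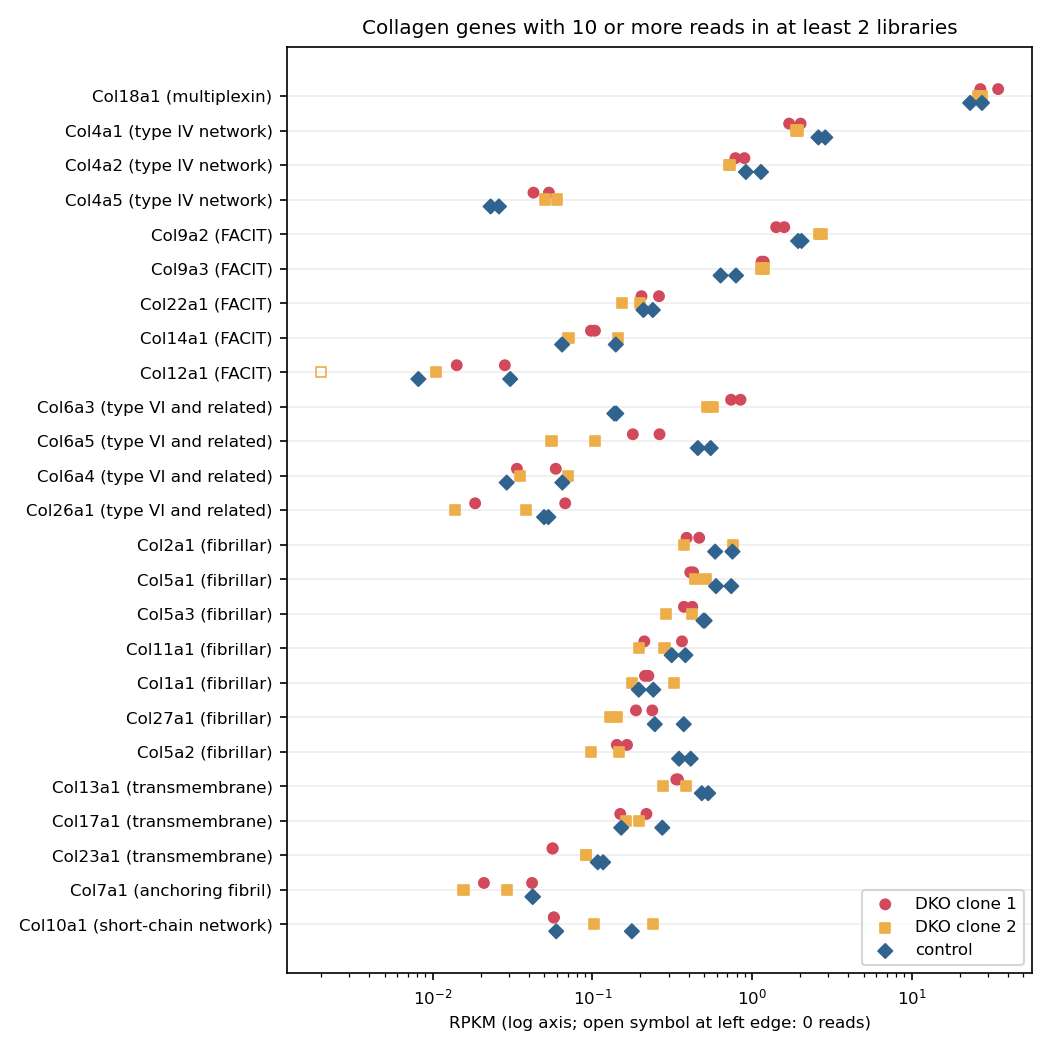
RPKM (log axis) of the 25 described collagen genes, ordered by class, with 1 symbol per library for DKO clone 1, DKO clone 2 and the control. Col18a1 lies above 20 in all 6 libraries and every other collagen lies below 3.

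The 19 collagens below the threshold were close to undetected. In 18 of them no library reached 10 reads, and the exception, Col6a6, had 4, 8, 8 and 4 reads in the DKO libraries against 15 and 2 reads in the control libraries. They included Col1a2, the partner chain of Col1a1 in type I collagen, with 6, 0, 4 and 0 reads in DKO libraries against 9 and 0 in the control, and Col3a1, the fibrillar chain of type III, with 0 to 4 reads in DKO libraries and 2 and 2 reads in the control. Col4a6 had 0 reads in all 6 libraries, which allows at most 3 reads, or 0.108 to 0.122 CPM in a DKO library and 0.0866 and 0.0928 CPM in a control library, from counting error alone. Col4a6 and Col4a5 are neighbours on chromosome X, and Col4a5 had 10, 8, 10 and 9 reads in DKO libraries against 6 and 5 reads in the control. Col4a5 and Col26a1 were described but had too few reads for the test, so 23 collagens were tested.

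In DKO cells, 2 of 23 tested collagens were called higher, Col6a3 and Col9a3, and 3 were called lower, Col5a2, Col6a5 and Col4a1. That is 8.70% higher, beside 5.06% of all tested genes, and 13.0% lower, beside 3.62% of all tested genes. Over all genes 748 were higher and 535 lower, while after removal of the median shift of every chromosome 341 were higher and 443 lower, and the same 5 collagens were called. With the reads of each clone added up, which leaves 2 DKO sums and 1 control sum, edgeR called 0 of the 23 (lowest adjusted p = 0.215, for Col6a3, with 2 higher and 3 lower at an unadjusted p under 0.05). The median change of the 23 was -0.40 on the log2 scale, beside 0.00038 for all tested genes, and 16 of the 23 changes were below 0. The 4 DKO libraries were all below both control libraries for 10 of the 23 (43.5%), where 16.9% of all tested genes were, and all above them for 2 (8.70%), where again 16.9% of all tested genes were. These shares describe the tested chains, since a gene enters the test through the group in which it is high.

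**Figure D2:**
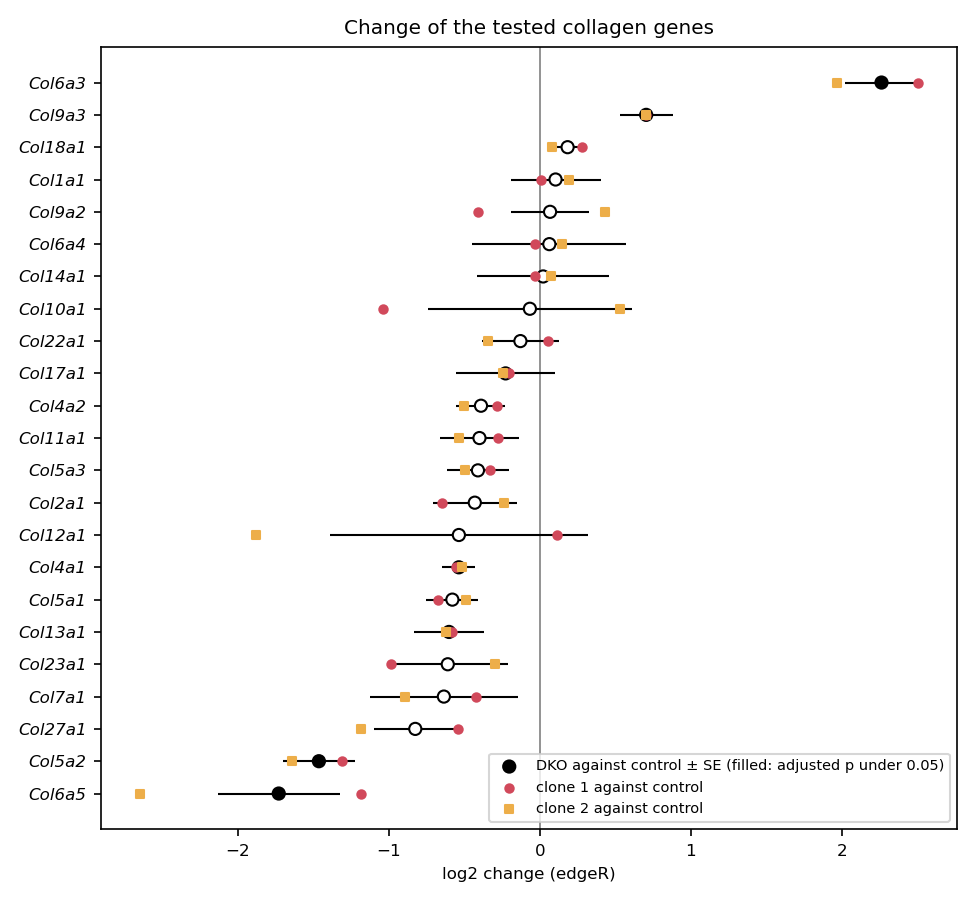
Change on the log2 scale for the 23 tested collagens, with DKO against control as a circle with its standard error (filled where the adjusted p was under 0.05), and each clone against control in colour. Of the changes in DKO against control, 16 of 23 lie left of 0, and Col6a3 stands apart on the right at 2.26.

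The clones were also set against the control one at a time. They share the control libraries, so their values are given side by side. In clone 1, 2 collagens were higher (8.70%, beside 8.79% of all tested genes) and 4 were lower (17.4%, beside 6.47%), and in clone 2, 2 were higher (8.70%, beside 7.89%) and 4 were lower (17.4%, beside 7.08%). Col6a3, Col9a3, Col5a2, Col6a5 and Col4a1 were called with the same sign in both clones. The fourth lower chain was Col5a1 in clone 1 and Col27a1 in clone 2. Between the clones, clone 2 against clone 1, 1 collagen was higher, Col9a2 (4.35%, beside 2.53% of all tested genes), and 1 was lower, Col6a5 (4.35%, beside 3.77%).

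Among the type VI chains, Col6a3 rose and Col6a5 fell in DKO cells. Type VI microfibrils are assembled from the products of Col6a1 and Col6a2 together with 1 more chain, which in the mouse is the product of Col6a3, Col6a4, Col6a5 or Col6a6. Col6a3 lies on chromosome 1, and Col6a6, Col6a5 and Col6a4 lie side by side on chromosome 9. The sequences upstream of Col6a3 and Col6a5 are shown because these chains had the largest rise and the largest fall among the tested collagens, and their products are alternative partners in the microfibril. Both run in the direction of transcription, come from RefSeq on GRCm38.p6 and have their CG dinucleotides in capitals. The Col6a3 stretch ends at the base before the annotated gene, and the Col6a5 stretch ends at the base before the start site used by the table, inside the wider RefSeq span of that gene.
Col6a3, chr1:90844002-90844221, minus strand: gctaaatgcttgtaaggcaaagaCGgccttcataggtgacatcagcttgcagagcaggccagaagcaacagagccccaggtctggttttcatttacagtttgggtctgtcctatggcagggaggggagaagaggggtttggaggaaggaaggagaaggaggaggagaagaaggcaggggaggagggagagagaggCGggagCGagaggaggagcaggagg
Col6a5, chr9:105960644-105960893, minus strand: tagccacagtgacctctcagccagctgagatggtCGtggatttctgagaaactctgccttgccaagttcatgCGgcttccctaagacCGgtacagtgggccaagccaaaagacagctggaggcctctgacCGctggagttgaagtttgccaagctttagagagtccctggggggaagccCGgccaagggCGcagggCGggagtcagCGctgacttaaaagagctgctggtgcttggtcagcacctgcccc
The Col6a3 stretch of 220 bases held 3 CG dinucleotides, and the Col6a5 stretch of 250 bases held 8. RefSeq windows of 300 bases, with 250 before the start, were found for 35 of the 44 collagens (38 windows). Their median was 11.5 CG dinucleotides, beside 19 in 14642 windows of tested genes. The 2 medians cover unlike sets, as 17 of these 35 collagens were described and the rest lay below the threshold for reads. The window of Col6a3 held 3 and that of Col6a5 held 10, counts that were matched or undercut in 8.35% and in 26.5% of the windows of tested genes. Among the other called collagens, the window of Col4a1, lower in DKO cells, held 37 and that of Col5a1, lower in clone 1, held 34. Of the windows of tested genes, 91.0% and 87.2% were at or below these counts. The window of Col27a1, lower in clone 2, held 18, and that of Col9a2, higher in clone 2 than in clone 1, held 10. No window was found for Col5a2 or Col9a3. The counts describe the sequence in these windows, and methylation was not measured here.

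Col6a3 (Entrez 12835, chromosome 1, 90766860 to 90844001) had 282 and 246 reads in clone 1, 156 and 181 in clone 2, and 58 and 53 in the control. In CPM this was 10.1 and 8.84 in clone 1, 6.26 and 6.79 in clone 2, and 1.69 and 1.64 in the control. All 4 DKO libraries were well above both control libraries, and clone 1 was above clone 2. The change in DKO cells was 2.26 on the log2 scale (SE 0.24, adjusted p = 0.00099), a 4.80-fold rise. It was 2.51 in clone 1 (SE 0.18, adjusted p = 2.06e-06) and 1.97 in clone 2 (SE 0.18, adjusted p = 1.96e-05), and clone 2 differed from clone 1 by -0.54 (SE 0.16, adjusted p = 0.0612). The call held without any 1 library, with adjusted p-values up to 0.0308, and ended with the reads added up per clone (adjusted p = 0.215). In bulk libraries a change in the number of cells that express a gene and a change in its RNA per cell cannot be told apart.

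The chains that Col6a3 needs for a type VI molecule were near the limit of detection. Col6a1 had 5 and 4 reads in clone 1, 3 and 2 in clone 2, and 3 and 1 in the control. Col6a2 had 0 and 5 reads in clone 1, 3 and 2 in clone 2, and 8 and 4 in the control. Per length, Col6a3 was 12.5 to 21.7 times the sum of Col6a1 and Col6a2 in DKO libraries and 2.95 and 6.25 times in control libraries, ratios whose denominator rests on 4 to 11 reads a library.

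Col6a5 (Entrez 665033, chromosome 9, 105856070 to 105962463) moved the other way. Its CPM was 1.69 and 2.48 in clone 1, 0.522 and 0.975 in clone 2, and 5.18 and 4.31 in the control. All 4 DKO libraries were below both control libraries, and clone 2, with 13 and 26 reads, was below clone 1, with 47 and 69 reads. The change in DKO cells was -1.73 on the log2 scale (SE 0.40, adjusted p = 0.0250). The call ended without control replicate 1 (adjusted p = 0.218) or control replicate 2 (adjusted p = 0.137). In clone 1 the change was -1.19 (SE 0.26, adjusted p = 0.00825) and in clone 2 it was -2.65 (SE 0.31, adjusted p = 8.84e-05). The clone 1 call ended without control replicate 1 or DKO clone 1 replicate 1. Clone 2 against clone 1 gave -1.46 on the log2 scale (SE 0.34, adjusted p = 0.0228), a difference whose call ended without DKO clone 1 replicate 2 (adjusted p = 0.136) or DKO clone 2 replicate 1 (adjusted p = 0.170).

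The neighbour Col6a4 had 8, 14, 15 and 8 reads in DKO libraries against 19 and 8 reads in the control, and its change of 0.06 (SE 0.51, adjusted p = 0.961) left a wide error. Within 500 kb of Col6a5, 17 genes were tested and none was called by edgeR at the threshold. Within 500 kb of Col6a3, 7 genes were tested, and Rab17, a small GTPase of membrane traffic, was called higher and Rbm44, an RNA-binding protein gene, lower. Of all tested genes, 5.06% were higher and 3.62% lower. Rab17 had 0.574 and 0.503 CPM in clone 1, 0.642 and 1.20 CPM in clone 2, and 0.175 and 0.0929 CPM in the control, a log2 change of 2.40 (SE 0.59, adjusted p = 0.0303) that rests on 6 and 3 reads in the control. Rbm44 averaged 4.49 ± 1.08 CPM in DKO cells and 7.89 ± 0.651 CPM in the control (SD, n = 4 and 2), and the log2 change was -0.82 (SE 0.20, adjusted p = 0.0310). Against the control, Rab17 was called higher in clone 2 (adjusted p = 0.00694) but not in clone 1 (adjusted p = 0.0531). The DKO call of Rab17 ended without control replicate 1, control replicate 2 or DKO clone 2 replicate 2. That of Rbm44 ended when either control library, either clone 1 library or DKO clone 2 replicate 2 was left out.

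**Figure D3:**
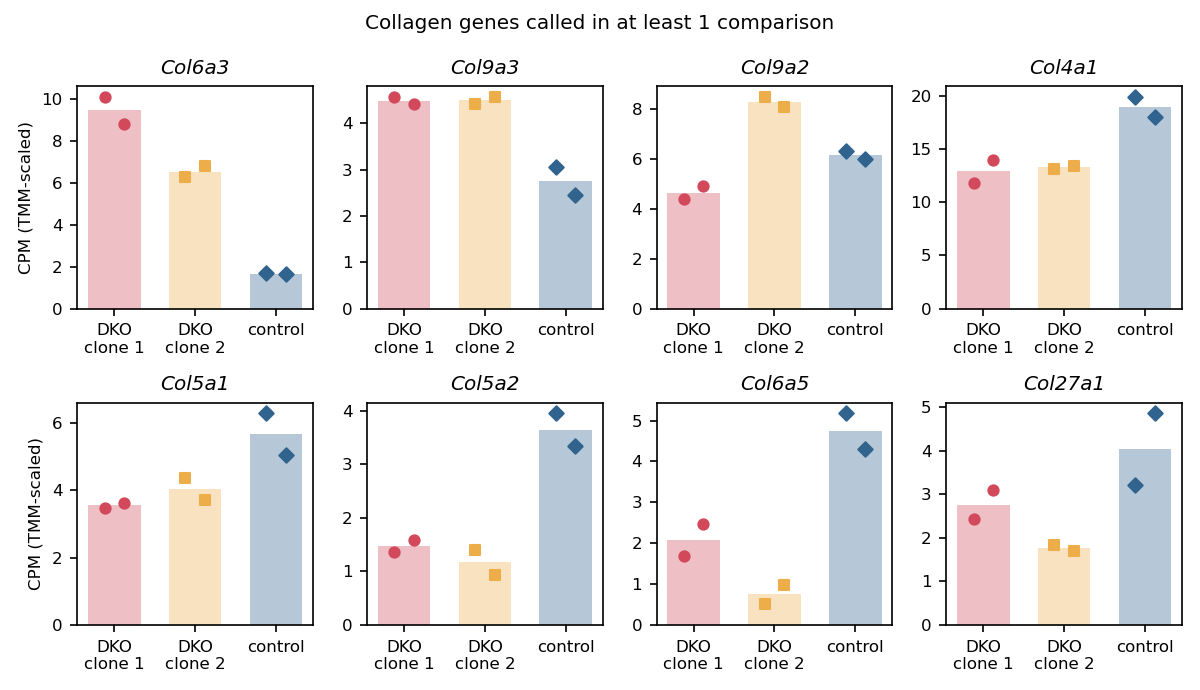
CPM, scaled by TMM, of the 8 collagens called in at least 1 comparison, with bars at the mean of 2 libraries and 1 symbol per library. Col6a3 is above the control in all 4 DKO libraries and highest in clone 1, Col6a5 is lowest in clone 2, and Col9a2 separates the clones with the control between them.

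The fibrillar chains were lower in sum, and 1 of 7 tested members, Col5a2, passed the test. The 11 fibrillar genes together had 16.5 and 18.6 CPM in clone 1, 16.3 and 17.8 CPM in clone 2, and 25.9 and 26.2 CPM in the control, with no overlap between DKO and control libraries. Of the 7 tested, 6 had changes below 0, with a median of -0.43. Beside these values, the fibroblast and feeder marker list without Vim and Fn1, which ES cells also express, summed to 22.0 to 29.3 CPM in DKO libraries and 37.8 and 45.0 CPM in control libraries. The whole list, most of it Vim and Fn1, summed the other way, to 1330 to 1532 CPM in DKO libraries and 1293 and 1318 CPM in control libraries. Of its 10 tested genes, 2 were lower in DKO cells (Acta2 and Twist1) and 1 was higher (Fbln2, on chromosome 6). Of all tested genes, 3.62% were lower and 5.06% higher. In clone 1, 4 of the 10 were lower and 2 higher, beside 6.47% and 8.79% of all tested genes. In clone 2, 3 were lower and 1 higher, beside 7.08% and 7.89%. Vim, Acta2 and Tagln were lower in clone 2 than in clone 1. The DKO calls of Acta2 and Twist1 ended when either control library was left out, and that of Fbln2 without control replicate 1 or either clone 1 library. The part of this list in the lower fibrillar levels was not tested.

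Col5a2 (Entrez 12832, chromosome 1, 45374331 to 45503282) codes for the minor chain of type V collagen, which starts and limits the growth of fibrils. Its CPM was 1.36 and 1.58 in clone 1, 1.41 and 0.937 in clone 2, and 3.96 and 3.35 in the control. The DKO level was 36.2% of the control, with no overlap between the groups, and the log2 change was -1.46 (SE 0.24, adjusted p = 0.00419). The clones gave -1.31 (SE 0.26, adjusted p = 0.00418) and -1.64 (SE 0.27, adjusted p = 0.00114) and were not called different from each other (adjusted p = 0.597). Without control replicate 1 the DKO call ended (adjusted p = 0.0860).

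Col5a1 (Entrez 12831, chromosome 2, 27886381 to 28039510), which supplies the other chains of the type V molecule, had 3.48 and 3.63 CPM in clone 1, 4.38 and 3.71 CPM in clone 2, and 6.29 and 5.05 CPM in the control. All DKO values were below both control values. The change in DKO cells was -0.58 (SE 0.17, adjusted p = 0.0667). In clone 1 it was -0.67 (SE 0.19, adjusted p = 0.0276), a call that ended without control replicate 1 or either library of clone 1. In clone 2 it was -0.49 (SE 0.19, adjusted p = 0.0995). Per length, Col5a1 was 2.59 to 4.47 times Col5a2 in DKO libraries and 1.70 and 1.79 times in control libraries. Col5a3, the other type V gene, changed by -0.41 (SE 0.21, adjusted p = 0.268).

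Col27a1 (Entrez 373864, chromosome 4, 63214009 to 63334991), a fibrillar chain of cartilage, had 2.44 and 3.09 CPM in clone 1, 1.85 and 1.69 CPM in clone 2, and 3.20 and 4.86 CPM in the control. All 4 DKO libraries were below both control libraries, and clone 2 was lowest. The log2 change was -0.82 in DKO cells (SE 0.27, adjusted p = 0.0928), -0.54 in clone 1 (SE 0.24, adjusted p = 0.162) and -1.19 in clone 2 (SE 0.26, adjusted p = 0.00766). The clone 2 call ended without control replicate 2 (adjusted p = 0.0943) or DKO clone 2 replicate 2 (adjusted p = 0.0666), and the clones themselves were not called different (adjusted p = 0.196). In the fit of all 3 groups, which estimates the spread within clones, the mean of both clones passed the threshold for Col27a1 (adjusted p = 0.0122) and for Col5a1 (adjusted p = 0.0218).

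The other fibrillar chains did not pass the test. Col1a1, the main chain of bone and skin collagen, had 1.16 to 2.13 CPM in DKO libraries and 1.28 and 1.58 CPM in the control, and its change was 0.10 (SE 0.30, adjusted p = 0.879). Col2a1, the chain of cartilage collagen, changed by -0.43 (SE 0.28, adjusted p = 0.397) and Col11a1, its partner in cartilage fibrils, by -0.40 (SE 0.26, adjusted p = 0.399). Col11a1 is on chromosome 3, where the median gene shifted by 0.25 (log2) in clone 1 and by 0.08 in clone 2.

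The type IV chains, which form the sheet of the basement membrane, summed to 17.7 and 20.2 CPM in clone 1, 18.3 and 18.9 CPM in clone 2, and 26.4 and 25.8 CPM in the control. Nearly all of this was Col4a1 and Col4a2, a pair transcribed head to head on chromosome 8, whose products form the main type IV molecule. Col4a1 (Entrez 12826, chromosome 8, 11198423 to 11312889) had 11.8 and 14.0 CPM in clone 1, 13.2 and 13.4 CPM in clone 2, and 19.9 and 18.1 CPM in the control. No DKO library reached the lower control library. The log2 change was -0.54 (SE 0.11, adjusted p = 0.0138), with -0.56 in clone 1 (SE 0.12, adjusted p = 0.00742) and -0.52 in clone 2 (SE 0.12, adjusted p = 0.0119). The DKO call ended without control replicate 1 (adjusted p = 0.182) or control replicate 2 (adjusted p = 0.0738). The clone 1 call ended without control replicate 1 or DKO clone 1 replicate 1, and the clone 2 call without control replicate 1 or either clone 2 library.

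Col4a2 (Entrez 12827, chromosome 8, 11312805 to 11449287) had 5.20 and 5.93 CPM in clone 1, 4.74 and 4.84 CPM in clone 2, and 6.06 and 7.53 CPM in the control. Its DKO values were all below the control values, the highest by a small margin, and the log2 change of -0.39 did not pass the test (SE 0.16, adjusted p = 0.179). The annotated genes share 85 bases, and reads there cannot be assigned without strand. Markers of primitive and parietal endoderm, lineages that secrete type IV collagen in the embryo, were low, with a summed level of 14.1 to 17.5 CPM in DKO libraries and 15.1 and 18.6 CPM in control libraries. Of the 14 markers 9 were tested, and edgeR called none in DKO cells. Among all tested genes 5.06% were higher and 3.62% lower. Against the control, clone 1 alone had 0 called and clone 2 had 1 lower, Dab2, where 7.08% of all tested genes were lower.

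**Figure D4:**
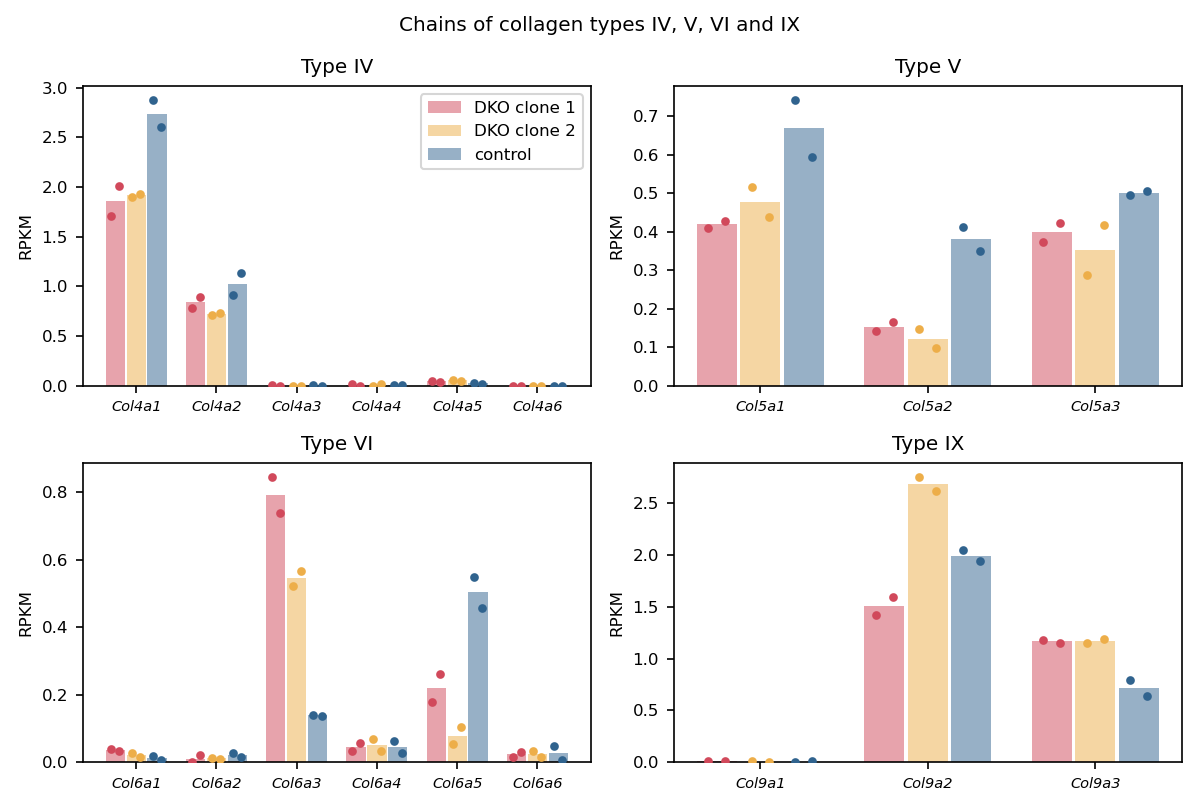
RPKM of every measured chain of collagen types IV, V, VI and IX, with bars at the mean of 2 libraries and a point per library. Col4a1 and Col4a2 carry type IV, and Col9a2 and Col9a3 carry type IX with Col9a1 near 0. In type VI, with Col6a1 and Col6a2 near 0, Col6a3 is highest in both DKO clones and Col6a5 is highest in the control. In clone 2 Col6a5 averages 0.080 RPKM, near Col6a4 at 0.053 RPKM.

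Among the FACIT genes, Col9a3 rose in DKO cells, and Col9a2 differed between the clones. Type IX is a trimer of the products of Col9a1, Col9a2 and Col9a3 on the surface of cartilage fibrils, and Col9a1 had 0 to 2 reads in every library. Col9a3 (Entrez 12841, chromosome 2, 180598102 to 180622192) had 4.56 and 4.42 CPM in clone 1, 4.42 and 4.57 CPM in clone 2, and 3.06 and 2.45 CPM in the control. The DKO libraries lay within a narrow range above both control libraries. The log2 change was 0.70 (SE 0.18, adjusted p = 0.0333), and it was 0.70 in clone 1 (SE 0.19, adjusted p = 0.0259) and 0.71 in clone 2 (SE 0.19, adjusted p = 0.0269). Of the 5 collagen calls in DKO cells this one alone ended with every library in turn, as leaving out any 1 of the 6 libraries gave an adjusted p between 0.0564 and 0.264. Each clone's call ended without control replicate 2 or either library of that clone.

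The last 237 bases of the Col9a3 span (chromosome 2, 180621956 to 180622192) overlap Tcfl5, a transcription factor gene of the germ line, and reads in that stretch cannot be assigned without strand. Tcfl5 had 43.6 ± 4.82 CPM in DKO cells and 29.5 ± 2.33 CPM in the control (SD, n = 4 and 2), a log2 change of 0.56 (SE 0.11, adjusted p = 0.0116), whose call ended without control replicate 1 or 2. Whether reads of Tcfl5 contribute to the Col9a3 count was not tested. Within 500 kb of Col9a3, 20 genes were tested, of which 4 were called higher (Tcfl5, Slc17a9, Arfgap1 and Nkain4) and 1 lower (Lama5). Of all tested genes, 5.06% were higher and 3.62% lower. Arfgap1 was near the threshold in DKO cells (adjusted p = 0.0451) and was not called in clone 2 (adjusted p = 0.0578). The calls of Slc17a9, Arfgap1 and Nkain4 were not examined with libraries left out.

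Col9a2 (Entrez 12840, chromosome 4, 121039566 to 121055325) separated the clones. Its CPM was 8.51 and 8.10 in clone 2 and 4.38 and 4.92 in clone 1, with 6.32 and 6.01 in the control between them. Clone 2 was above clone 1 by 0.84 on the log2 scale (SE 0.16, adjusted p = 0.00776), a 1.78-fold difference. The call ended without DKO clone 1 replicate 1 (adjusted p = 0.0645) or DKO clone 2 replicate 1 (adjusted p = 0.0649). Against the control, clone 1 changed by -0.41 (SE 0.16, adjusted p = 0.102) and clone 2 by 0.43 (SE 0.15, adjusted p = 0.0753), and the DKO libraries together gave 0.07 (SE 0.26, adjusted p = 0.912). The remaining FACIT chains Col12a1, Col14a1 and Col22a1 were not called in any comparison.

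The transmembrane collagens, which span the cell surface, included 3 tested genes and none called by edgeR (Col13a1 -0.60, SE 0.23, adjusted p = 0.143, Col23a1 -0.61, SE 0.40, adjusted p = 0.400, and Col17a1 -0.23, SE 0.33, adjusted p = 0.737). Col13a1 had 1.27 to 1.77 CPM in DKO libraries and 2.23 and 2.45 CPM in the control, with no overlap. Col7a1, the anchoring fibril chain of skin, and Col10a1, the network chain of growth plate cartilage, had 4 to 20 reads a library and changes of -0.64 (SE 0.49, adjusted p = 0.485) and -0.07 (SE 0.67, adjusted p = 0.970). The 18 tested collagens that were not called in DKO cells had a median SE of 0.28, and the highest was 0.86 for Col12a1, so changes of moderate size were not detectable for the lowest chains.

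Genes that act on collagen were examined in 5 lists, which were drawn up with earlier results of these data known. Of the 52 members tested, 2 were higher in DKO cells (3.85%, beside 5.06% of all tested genes) and 6 were lower (11.5%, beside 3.62%). These shares describe the listed genes only. Each clone alone had 15 called. In clone 1, 3 were higher (5.77%, beside 8.79% of all tested genes) and 12 were lower (23.1%, beside 6.47%). In clone 2, 6 were higher (11.5%, beside 7.89%) and 9 were lower (17.3%, beside 7.08%). Clone 2 against clone 1 had 6 higher (11.5%, beside 2.53%) and 3 lower (5.77%, beside 3.77%). Of 19 tested genes for procollagen folding and modification, none was higher in DKO cells and 1 was lower (median log2 change -0.03). The lower gene was P3h4, a cofactor of lysyl hydroxylation, with 1.47 and 1.29 CPM in clone 1, 1.36 and 1.54 CPM in clone 2, and 2.97 and 2.32 CPM in the control (log2 -0.90, SE 0.23, adjusted p = 0.0333). That call ended when any 1 library other than DKO clone 2 replicate 2 was left out, and with each chromosome centred (adjusted p = 0.0585). Serpinh1, the collagen chaperone HSP47, had 89.9 to 94.5 CPM in DKO libraries and 78.1 and 84.4 CPM in the control (log2 0.19, SE 0.07, adjusted p = 0.127).

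Of 11 tested genes for processing and crosslinking, 1 was higher and 1 lower in DKO cells (median -0.33). Against the control, clone 1 had 1 higher (Loxl3) and 4 lower (Tll1, Pcolce, Pcolce2 and Pxdn). Clone 2 had 1 higher (Loxl3) and 2 lower (Tll1 and Loxl4). Between the clones, Pcolce2 was higher and Tll1 lower in clone 2. The shares of all tested genes are those given for the 5 lists together. Tll1, a protease that trims procollagen, had 5.06 and 4.24 CPM in clone 1, 2.33 and 2.92 CPM in clone 2, and 10.8 and 10.6 CPM in the control (log2 -1.55, SE 0.24, adjusted p = 0.00367). Loxl3, a lysyl oxidase that crosslinks collagen, had 10.7 and 10.6 CPM in clone 1, 11.6 and 13.9 CPM in clone 2, and 7.66 and 6.16 CPM in the control (log2 0.76, SE 0.16, adjusted p = 0.0153). Loxl3 lies on chromosome 6, where the median gene shifted by 0.40 (log2) in clone 1 and by 0.47 in clone 2, and with each chromosome centred its change was 0.32 (adjusted p = 0.258). No called collagen lies on chromosome 3 or 6. The calls of Tll1 and Loxl3 each ended when either control library was left out.

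Of 5 tested collagen receptors, 1 was higher and none lower in DKO cells (median -0.0037). It was Itga1, an integrin subunit that binds type IV collagen, with 7.18 and 7.97 CPM in clone 1, 5.50 and 5.17 CPM in clone 2, and 3.23 and 3.69 CPM in the control (log2 0.90, SE 0.21, adjusted p = 0.0253, a call that ended when either control library was left out). Ddr2, a receptor kinase for fibrillar collagen, separated the clones, with 8.11 and 8.21 CPM in clone 2 and 2.26 and 3.02 CPM in clone 1, beside 9.55 and 10.1 CPM in the control. Clone 2 was above clone 1 by 1.63 (SE 0.18, adjusted p = 0.000227), a call that held without any 1 library.

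Of 3 tested genes for collagen degradation, none was higher and 1 was lower (median -0.28). Mmp14, a membrane-bound collagenase, had 4.67 and 5.14 CPM in clone 1, 5.14 and 5.10 CPM in clone 2, and 11.4 and 9.73 CPM in the control. All DKO libraries were near the same level and below the control libraries (log2 -1.08, SE 0.14, adjusted p = 0.00138), and the call held without any 1 library.

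Of 14 tested basement membrane partners of collagen, none was higher and 3 were lower, all laminin chains (median -0.016). Lama3 had 92.2 and 91.2 CPM in clone 1, 109 and 119 CPM in clone 2, and 175 and 185 CPM in the control (log2 -0.81, SE 0.10, adjusted p = 0.00138), and its call held without any 1 library. Lamb1 had 16.8 and 15.5 CPM in clone 1, 29.3 and 28.7 CPM in clone 2, and 44.0 and 41.0 CPM in the control (log2 -0.92, SE 0.23, adjusted p = 0.0335). Lama5 had 95.4 to 109 CPM in DKO libraries and 139 and 120 CPM in the control (log2 -0.33, SE 0.08, adjusted p = 0.0276). The calls of both ended when either control library was left out, that of Lamb1 also without DKO clone 1 replicate 1 and that of Lama5 also without either clone 2 library. Sparc, a collagen-binding matrix protein, had 331 to 347 CPM in DKO libraries and 332 and 381 CPM in the control (log2 -0.06, SE 0.07, adjusted p = 0.645).

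**Figure D5:**
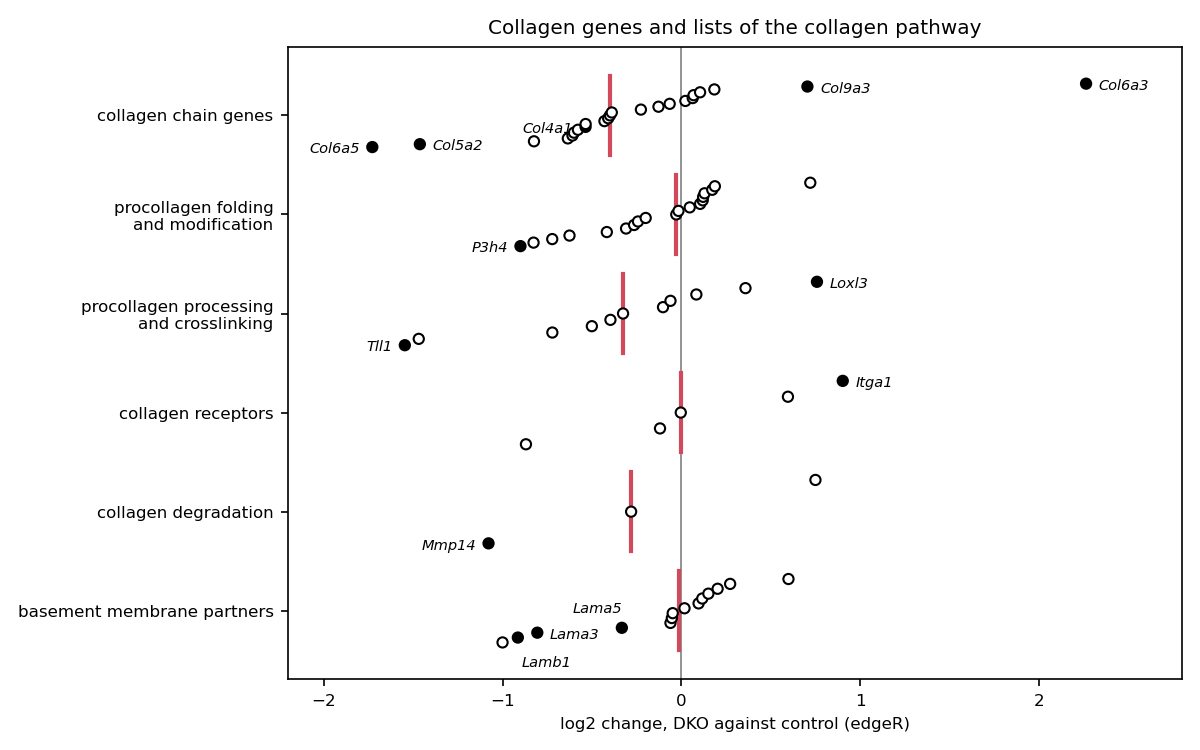
Change on the log2 scale, DKO against control, of the tested collagens and of 5 lists of genes that act on collagen, with 1 circle per gene (filled where the adjusted p was under 0.05, and named) and a red line at each median. The collagen median is at -0.40 and that of the folding list at -0.03.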

How the data were processed

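RNA was sequenced in 6 libraries. Per the labels' protocols, RNA was purified on RNeasy columns, treated with Turbo DNase and made into libraries with the ScriptSeq v2 kit. Reads were aligned with STAR 2.5.0a to mm10 (GRCm38), per the submitters' processing notes. The deposited values are raw read counts for each Entrez gene, beside a gene width. How reads were counted (tool, annotation, strand, mates, multiple matches) is not given in the sources used here.

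Symbols and positions came from a RefSeq table on GRCm38.p6, which matched 24437 of 24467 IDs; the other 30 held between 0.389 and 1.62% of reads. The analysis used edgeR 4.0.16 in R 4.3.3. The filter filterByExpr by group left 14771 genes, TMM factors were 0.992 to 1.01, and the two-sided quasi-likelihood F test was adjusted by Benjamini and Hochberg over all of them. DKO against control used genotype as the only term (4 against 2 libraries), and clone contrasts used a fit of 3 groups. SE was taken from the F statistic. Values are CPM per library, and SD is between libraries. Floors cover counting error only.

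No 2 libraries of a group agreed within sampling noise (chi-square per gene 11.5 to 41.6). The fits were first run on simulated counts with 200 changed genes. Collagens called in any comparison, the 3 with the highest level per length, and up to 4 called members of each list were named with values, as were the targets. Other genes, such as neighbours, Ddr2, Serpinh1 and Sparc, were chosen after their values were seen. The members and lists were chosen with earlier results of these data known. Alternatives were other scaling and filters, DESeq2 1.42.0, limma-voom (limma 3.58.1), a replicate block, centred chromosomes, counts summed per clone and each library left out. Col21a1 was not analysed here.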

Additional observations from a re-analysis of the deposited data

Results flagged for a closer look

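Col18a1 had 244 CPM in DKO clone 1 replicate 2, against 183 to 193 CPM in the other DKO libraries. Its gap to the next library, divided by the range of the 4, was 0.845, above Dixon's 95% critical value for 4 samples. This was examined in 23 collagens, and chance gives such a gap in about 1 of 20.

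Between the clones 2 collagens differed, by the test of clone 2 against clone 1 in the edgeR fit of 3 groups. A difference in the response to the deletion and a difference between any 2 clones cannot be told apart here. Col6a5 differed by -1.46 on the log2 scale (adjusted p = 0.0228), with 0.522 and 0.975 CPM in clone 2 and 1.69 and 2.48 CPM in clone 1. Col9a2 differed by 0.84 (adjusted p = 0.00776), with 8.51 and 8.10 CPM in clone 2 and 4.38 and 4.92 CPM in clone 1, and it was not called against the control in clone 1 (adjusted p = 0.102) or clone 2 (adjusted p = 0.0753).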

How the results depend on the processing

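The same 5 collagens were called in DKO against control with RLE scaling, library size only, both other filters, centred chromosomes, limma-voom and DESeq2. Leaving out 1 library gave 1 to 5 calls, with Col6a3 alone called without control replicate 1, and Col6a3 and Col5a2 without control replicate 2. With the libraries of each clone added up, 2 DKO sums against 1 control sum, edgeR called 0 (2 higher and 3 lower at an unadjusted p under 0.05, lowest adjusted p 0.215). In clone 1 and in clone 2 against control, 6 collagens were called, and leaving out a library gave 3 to 6 in each. Clone 1 had 3 without control replicate 1 or DKO clone 1 replicate 1, and clone 2 had 3 without DKO clone 2 replicate 2. With no filter beyond 1 read, 8 were called in clone 1, adding Col18a1 (adjusted p = 0.0049) and Col2a1 (adjusted p = 0.0295), 7 in clone 2, adding Col4a2 (adjusted p = 0.0354), and 3 between the clones, adding Col6a3 (adjusted p = 0.0286). Col18a1 also gained a call in clone 1 without DKO clone 1 replicate 1 (adjusted p = 0.00994), and Col27a1 in DKO cells without DKO clone 1 replicate 2 (adjusted p = 0.0477). DESeq2 did not call Col9a3 in either clone (adjusted p = 0.0537 in clone 1 and 0.0569 in clone 2) or Col5a1 in clone 1 (adjusted p = 0.0547). Between the clones, 2 were called, 0 to 2 with a library left out (0 without DKO clone 2 replicate 1, 1 without either clone 1 library), and 1 with limma-voom, where Col6a5 had adjusted p = 0.0577. The change of Col9a2 in DKO against control, 0.07, reversed to -0.0023 with limma-voom and ranged from -0.090 to 0.22 with a library left out. That of Nanog, an ES cell marker on chromosome 6, was 0.33 and reversed to -0.11 with centred chromosomes. The cause of these changes was not tested. The labels do not say whether libraries with the same replicate number share a culture or a day. Deviations of same-numbered libraries correlated at 0.068, -0.134 and 0.052, and with 2 libraries a group these values cannot decide it. With the replicate block 4 collagens were called in DKO cells, without Col9a3 (adjusted p = 0.0612), and 6, 6 and 2 in the other comparisons. P3h4, Lamb1, Rab17 and Rbm44 also lost their calls under the block. Over all genes, the counts higher and lower in DKO cells, 748 and 535, became 154 and 89 without control replicate 1, 212 and 104 without control replicate 2, 0 and 2 with libraries added up per clone, and 1379 and 1249 in the fit of 3 groups. For clone 1, 1298 and 955 fell to 795 and 489 without DKO clone 1 replicate 1. For clone 2, 1165 and 1046 fell to 649 and 460 without DKO clone 2 replicate 2. Between the clones, 373 and 557 fell to 104 and 149 without DKO clone 2 replicate 1 and were 644 and 809 with no filter beyond 1 read. Depth limits the chains with few reads.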
